A study of Saccharomyces cerevisiae with 12 samples.

Results

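Cells of the budding yeast Saccharomyces cerevisiae that lack mitochondrial DNA (r0) were compared, after 4 h without glucose, with cells that carry it (r+). The comparison rests on 6 of the 12 arrays of the series, chosen by their labels: 3 r0 and 3 r+ arrays without glucose, each described as a biological replicate. In the other 6 arrays, 3 r0 and 3 r+, the cells were harvested in 2% glucose, and they serve to show where the comparison without glucose differs and, in the same fit, to estimate the spread between arrays. Fitted to the 6 arrays without glucose alone, 949 genes were higher and 489 lower in r0 cells, against 1102 and 504 with all 12. All cultures were grown at 22 °C in CM medium with 2% glucose to early log phase, and part of each was harvested there. The remainder was spun down, washed in CM without glucose and shaken in it for 4 h. No group was washed and shaken with glucose, so absence of glucose, washing and the further 4 h cannot be told apart. The labels used here name no strain, no number of clones and no way in which mitochondrial DNA was lost. Any other genetic difference between the r0 and r+ strains therefore cannot be told apart from the loss of mitochondrial DNA.

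Mitochondrial DNA of yeast encodes a few core subunits of cytochrome bc1 (complex III), cytochrome c oxidase (complex IV) and the ATP synthase, and all other subunits come from nuclear genes. Cells without it cannot respire, and they live by fermenting sugar. When glucose is withdrawn, respiring yeast turn on genes for the uptake and oxidation of acetate, ethanol, lactate and fatty acids, most of which glucose represses, together with stress genes. Loss of mitochondrial DNA is also known to change nuclear transcription, through the retrograde pathway (Rtg1 and Rtg3) and the drug resistance regulator Pdr3.

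Each value below is the MAS5 signal of a gene's probe set in arbitrary units, given for replicates 1, 2 and 3 of a group in that order. The log2 difference is r0 minus r+ of log2(signal + 1.498), with its standard error where one is given, and a gene was called higher or lower at an adjusted p under 0.05 in a limma fit over 5361 genes. Folds are taken from this difference, which understates the change of dim genes. A gene that does not exceed the detection level of 5.822 on any array of the dimmer group has a fold given as "at least". P-values measure only the spread between these 3 arrays per group.

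The arrays without glucose resembled each other in depth of detection. Of the 5656 genes with a probe set, 91.3% to 91.8% exceeded the detection level in r0 cells and 89.8% to 91.5% in r+ cells. Correlations across genes between replicates lay between 0.974 and 0.979 in r0 cells and between 0.976 and 0.984 in r+ cells. SPT15 has probe sets at both ends, and their 5′ over 3′ signal ratio, which falls with incomplete cDNA, was 0.106, 0.128 and 0.187 in r0 cells, against 0.194, 0.188 and 0.183 in r+ cells. Of these, 2 r0 arrays lay below all r+ arrays (exact permutation p = 0.2, two-sided, where 20 assignments allow no less than 0.1). The same ratio for ACT1 was 0.825, 0.509 and 0.609 in r0 cells and 0.67, 0.605 and 0.624 in r+ cells. The bacteriophage hybridization control CreX read 487 on the r0 array of replicate 1 and between 524.5 and 821 on the other 5. Another hybridization control, BioDn, set that array further apart, with 193.4 against 313.3 to 392.8 on the other 5.

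The strain labels were checked first with the genes of mitochondrial DNA. Signals of OLI1, for the ring subunit 9 of the ATP synthase, were 0.335, 0.391 and 0.234 in r0 cells, against 143.4, 113 and 128 in r+ cells. It was at least 21.9-fold lower in r0 cells (log2 difference −6.15 ± 0.20, adjusted p = 1.21e-11), and the r0 arrays all lay below the detection level. COX1, for subunit 1 of cytochrome c oxidase, measured 0.548, 1.20 and 0.322 in r0 cells, against 10.2, 13.7 and 13.5 in r+ cells, at least 2.12-fold lower (adjusted p = 0.000109). Of the 19 mitochondrial genes on the array the other 17 were too dim in every group to be tested, and this RNA had been selected for poly(A) tails. By the brighter genes both strains were of the a mating type. The a-factor gene MFA1, on a shared probe set, gave between 3040 and 4471 in r0 cells and between 3627 and 5156 in r+ cells, and of the genes that alpha cells express, the a-factor receptor gene STE3 gave between 5.03 and 9.51 in r0 cells and between 3.59 and 7.10 in r+ cells. MF(ALPHA)1, the alpha-factor gene, was dim but above every r+ array in r0 cells, at 11.8 to 14.0 in r0 cells and 5.41 to 10.4 in r+ cells (adjusted p = 0.155).

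Without glucose, 1102 genes were higher and 504 lower in r0 than in r+ cells, of 5361 tested. The background shares are thus 20.6% higher and 9.4% lower. Large differences were mostly losses: 53 genes (0.989%) were called and at least 4-fold lower in r0 cells, and 9 (0.168%) at least 4-fold higher. At 2-fold the counts were 234 lower (4.36%) and 237 higher (4.42%). The 3 r0 arrays lay entirely above the 3 r+ arrays for 1682 genes (31.4%) and entirely below them for 723 (13.5%). In bulk RNA, a lower signal in every cell and fewer cells with the transcript cannot be told apart.

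The many small rises depended on scale and on gene length. On the authors' scale the median log2 difference of all genes was 0.21, and medians of gene groups below are given relative to it. After median centring of each array 442 genes were higher and 740 lower, after quantile normalization 708 and 542, and on the scale of the poly-A control probe sets 903 and 288. These controls were dim, with a mean log2 signal between 3.42 and 3.80 on the 6 arrays without glucose. The median of the genes tested lay between 5.27 and 5.59 there. Poly-A scaling therefore rests on weak signals, here and wherever it is used below. Under all 4 scalings, that of the authors included, 442 genes (8.24%) stayed higher and 288 (5.37%) stayed lower. Without the r0 array of replicate 1 the higher count was 701, and 476 higher (8.88%) and 333 lower calls (6.21%) held whichever of the 12 arrays was left out. Genes were also divided by coding length into 5 bins of equal size. In the bin of longest genes 38.2% of genes were higher and 2.33% lower in r0 cells, against 7.36% and 18.4% in the bin of shortest genes. The median coding length was 1731 bases for genes called higher and 790.5 for genes called lower, against 1155 for the rest. In glucose 7.93% of genes were higher and 0.28% lower in the bin of longest genes, and 5.31% and 1.49% in the shortest. The median log2 differences of these 2 bins were 0.32 and 0.09 in glucose, against 0.50 and −0.12 without it. When each array's trend of signal on coding length was removed, an alternative added after this was seen, 392 genes (7.31%) were higher and 616 (11.5%) lower. Of the original calls, 368 higher (6.86%) and 450 lower ones (8.39%) remained. The part of the 5′ to 3′ signal ratio in this trend was not tested. Counts for most gene groups are therefore given with the number called under all 4 scalings and in the fit without the length trend. For many counts that changed by more than 1.5 times, the range over the 12 omissions of 1 array is added. A count given without a range is not thereby shown to be stable.

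**Figure D1:**
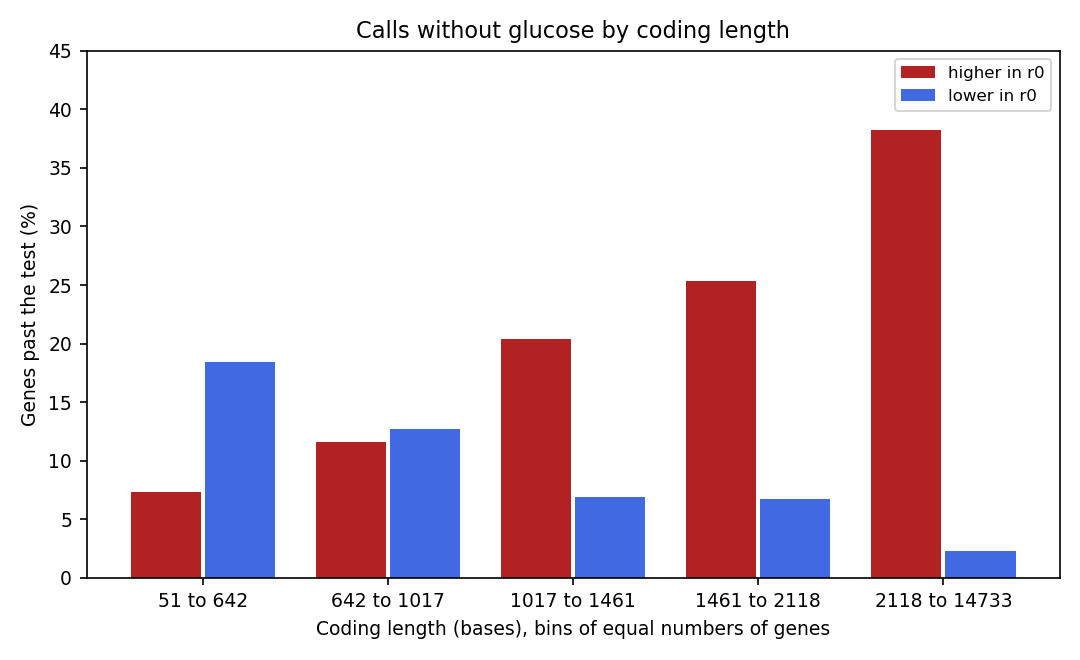
Share of genes called without glucose (y axis, percent of the genes in a bin) by coding length in bases (x axis, bins of equal size), for genes higher in r0 cells (red, left bar) and lower in r0 cells (blue, right bar). Genes called higher make up 7.36% of the shortest and 38.2% of the longest genes, and genes called lower 18.4% and 2.33%.

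Nuclear genes for the respiratory complexes that also hold mitochondrially encoded subunits were mostly lower in r0 cells without glucose. Of 13 tested genes of complex III, cytochrome c and lactate dehydrogenases, 8 were lower and 1 was higher, where 9.4% and 20.6% of all genes were. Their median log2 difference was −1.29 relative to all genes. QCR6, a small acidic subunit of complex III, measured 107, 62.8 and 87.5 in r0 cells, against 299, 267 and 354 in r+ cells, 3.59-fold lower (log2 difference −1.84 ± 0.21, adjusted p = 1.49e-05). The Rieske iron-sulfur subunit gene RIP1 measured 226, 273 and 284 in r0 cells, against 577, 740 and 702 in r+ cells, and all r0 arrays lay below all r+ arrays. It was 2.57-fold lower (adjusted p = 4.85e-05), and QCR10 was 2.58-fold lower (adjusted p = 9.79e-05). CYC1, for the main cytochrome c, was not called, with a log2 difference of −0.10 ± 0.32 (SE) and signals that overlapped between the strains. DLD1, for a D-lactate dehydrogenase that feeds cytochrome c, was 1.53-fold higher (adjusted p = 0.0125). That call ended under median centring, without the length trend, and without the r+ array of replicate 1 (log2 difference 0.55).

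Of 10 nuclear genes of complex IV, 8 were lower and 0 higher, with a relative median of −1.25. COX26, a small subunit, measured 29.0, 21.5 and 37.5 in r0 cells, against 173, 189 and 193 in r+ cells, 6.18-fold lower (adjusted p = 1.57e-06). COX5B, the isoform of subunit 5 known from low oxygen, was 3.84-fold lower (adjusted p = 2.58e-05) and COX7 2.30-fold lower (adjusted p = 0.000197). Among 17 genes of the ATP synthase and its inhibitors, 9 were lower and 1 was higher (relative median −0.81). The largest difference was that of INH1, the inhibitor that blocks ATP hydrolysis by the enzyme, with 14.2, 8.98 and 11.9 in r0 cells, against 75.5, 90.5 and 122 in r+ cells. It was 7.36-fold lower (adjusted p = 1.37e-07). ATP17, a membrane sector subunit, was 4.64-fold lower (adjusted p = 2.2e-07). In contrast ATP1, for the alpha subunit of the enzyme's head, measured 571, 359 and 370 in r0 cells, against 276, 241 and 272 in r+ cells, 1.61-fold higher (adjusted p = 0.0181), a call that did not hold under median centring or without the length trend. Nor did it hold without the r0 array of replicate 1 (log2 difference 0.47) or the r+ array of replicate 2 (0.63). Under all 4 scalings 7 of the complex III group, 7 of complex IV and 6 of the ATP synthase group were lower, where 5.37% of all genes were. These are short genes, with median coding lengths of 444, 321 and 348 bases. In the fit without the length trend 9, 8 and 10 were lower, where 11.5% of all genes were.

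Complex II and the NADH dehydrogenases, which hold no mitochondrially encoded subunit, were called in both directions, with 3 lower and 1 higher of 10 (relative median −0.56). Under median centring 5 of them were lower, and under all 4 scalings 2. NDI1, for the NADH dehydrogenase that faces the matrix, measured 56.8, 62.2 and 53.9 in r0 cells, against 147, 163 and 152 in r+ cells, 2.63-fold lower (adjusted p = 2.16e-05). NDE1, for an NADH dehydrogenase that faces the other side of the inner membrane, measured 1461, 1738 and 1332 in r0 cells, against 664, 714 and 665 in r+ cells, 2.20-fold higher (adjusted p = 0.000606). The r0 and r+ arrays were fully separated for both genes, in opposite directions. Among 38 genes for the assembly of respiratory complexes, 6 were lower and 2 higher, with 2 lower under all 4 scalings, 4 without the length trend and between 2 and 6 with 1 array left out. They were led by COX19, a factor of complex IV assembly, at 2.96-fold lower (adjusted p = 0.000125). HAP4, the activator subunit of the respiratory regulator Hap2/3/4/5, had nearly equal means, with a log2 difference of 0.00 ± 0.27 (SE, adjusted p = 0.995).

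**Figure D2:**
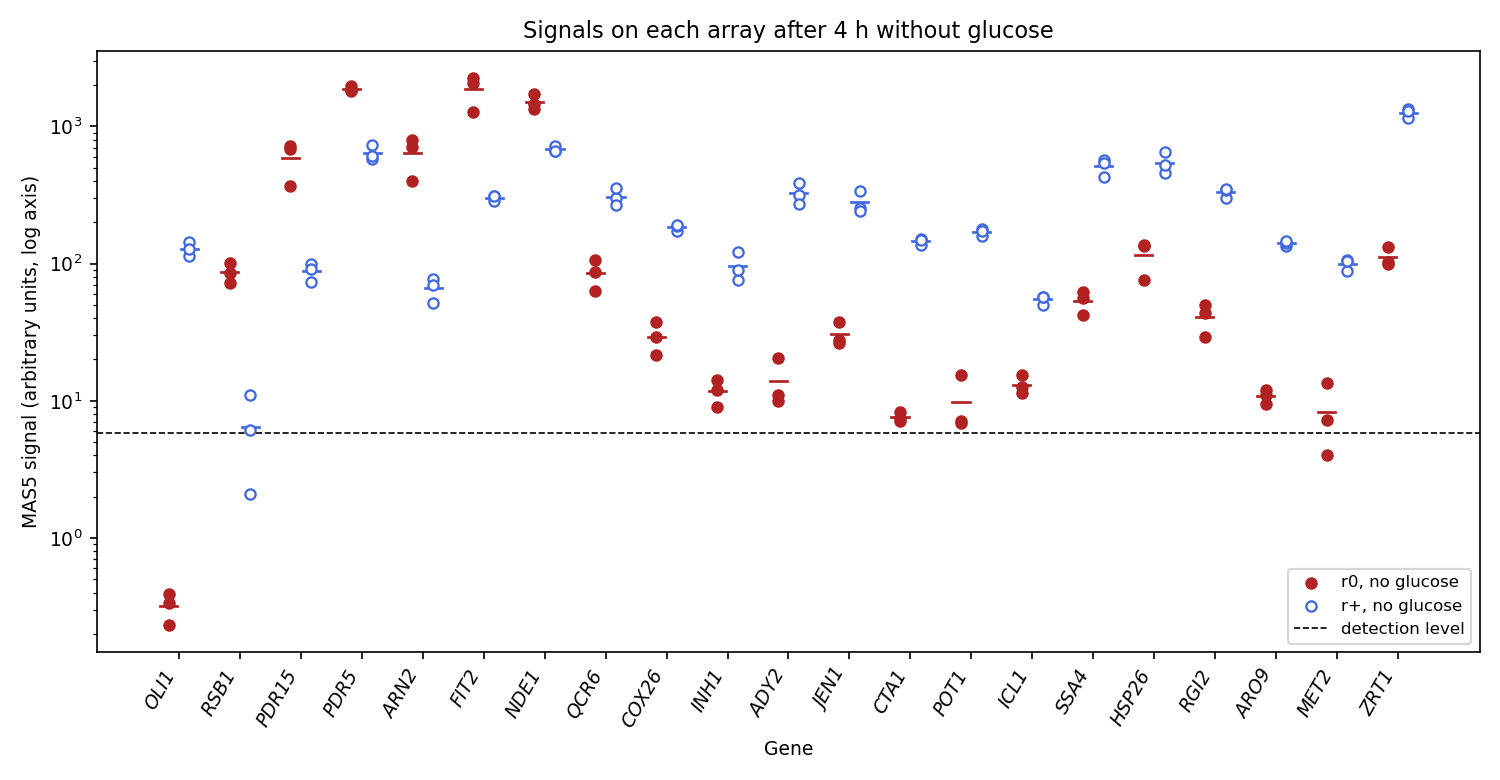
MAS5 signal on each array without glucose (y axis, arbitrary units, log scale) for 21 genes (x axis). Filled red points are the 3 r0 arrays and open blue points the 3 r+ arrays, short bars are means, and the dashed line is the detection level of 5.822. The r0 arrays lie above the r+ arrays for RSB1, PDR15, PDR5, ARN2, FIT2 and NDE1, and below them for the other 15 genes.

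The largest losses of nuclear transcripts in r0 cells included genes for the use of carbon sources other than sugar. All 3 called genes of the 4 acetate, lactate and ammonium permeases tested were lower. ADY2, the acetate permease gene, measured 10.0, 11.1 and 20.7 in r0 cells, against 314, 387 and 274 in r+ cells, 21.9-fold lower (log2 difference −4.45 ± 0.26, adjusted p = 1.92e-08). JEN1, which carries lactate and pyruvate, measured 27.8, 26.3 and 37.8 in r0 cells, against 255.2, 244 and 341 in r+ cells, 8.77-fold lower (adjusted p = 2.38e-08). The ammonium export gene ATO2 was 4.81-fold lower (adjusted p = 2.19e-07), while ATO3 was not called. Every r0 array of the 3 called genes lay well below every r+ array, and ADY2 came nearest to the detection level.

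In the glyoxylate cycle, gluconeogenesis and 2-carbon use, 13 of 24 genes were lower and 0 higher (relative median −0.97). Under all 4 scalings 10 were lower, and 15 without the length trend. ICL1, for isocitrate lyase of the glyoxylate cycle, measured 15.5, 12.5 and 11.4 in r0 cells, against 49.6, 57.4 and 57.5 in r+ cells, 3.87-fold lower (adjusted p = 2.35e-06). ADH2, for the alcohol dehydrogenase that oxidises ethanol, measured 43.9, 52.2 and 48.6 in r0 cells, against 162, 192 and 212 in r+ cells, 3.81-fold lower (adjusted p = 5.72e-07). For both genes the r0 arrays lay close together, far below the r+ arrays. SFC1, the mitochondrial carrier that exchanges succinate for fumarate, did not exceed the detection level on any r0 array and was at least 1.53-fold lower (adjusted p = 0.00172), a call lost when all signals were floored at that level.

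Fatty acid oxidation, which in yeast takes place in peroxisomes, followed the same direction, with 9 of 18 genes lower and 2 higher (relative median −0.73). Of these 7 were lower under all 4 scalings, and 9 genes were without the length trend. With 1 array left out between 0 and 2 were higher. CTA1, the peroxisomal catalase gene, measured 8.28, 7.18 and 7.47 in r0 cells, against 137, 151 and 148 in r+ cells, 16.1-fold lower (adjusted p = 5.57e-09). POT1, for the thiolase of the last step of each round, measured 15.5, 7.07 and 6.94 in r0 cells, against 159, 179 and 173 in r+ cells, a log2 difference of −4.00 ± 0.24 (adjusted p = 2.16e-08). In r0 cells CTA1 lay near the detection level on every array, and POT1 on all but replicate 1. The acyl-CoA oxidase gene POX1, of the first step, was 3.84-fold lower (adjusted p = 0.00215), with 2 of its 3 r0 arrays below the detection level, so that this size is uncertain. Of 26 genes that build peroxisomes, 5 were higher and 0 lower, a share of 19.2% higher, near that of all genes. Under all 4 scalings 3 were higher, 2 without the length trend and between 3 and 6 with 1 array left out. PEX25, which acts in peroxisome proliferation, measured 90.8, 76.6 and 95.1 in r0 cells, against 32.5, 25.4 and 30.4 in r+ cells, 2.88-fold higher (adjusted p = 0.000112).

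Among 16 hexose transporter, sensor and regulator genes 6 were lower and 3 higher in r0 cells, with 4 and 2 under all 4 scalings and 8 and 1 without the length trend. MIG1, for the repressor of glucose-repressed genes, measured 5.71, 5.42 and 5.14 in r0 cells, against 20.7, 18.3 and 27.0 in r+ cells, at least 3.73-fold lower (adjusted p = 0.000615). MTH1, a corepressor of hexose transporter genes that is removed when glucose is sensed, was 2.79-fold lower (adjusted p = 0.000753). HXT2, a transporter of higher affinity, was 1.76-fold lower (adjusted p = 0.00384), and HXT1, of low affinity, measured 1234, 1222 and 1719 in r0 cells, against 952, 851 and 475 in r+ cells, 1.89-fold higher (adjusted p = 0.00585), a call lost without the length trend. So the low-affinity transporter and the transporter of higher affinity differed in opposite directions. In the group of sugar use 4 of 15 genes were lower and 0 higher, with 2 lower under all 4 scalings and 5 without the length trend. Invertase, SUC2 on a shared probe set, measured 84.4, 56.8 and 80.8 in r0 cells, against 418, 391 and 440 in r+ cells, 5.61-fold lower (adjusted p = 1.51e-07), and the hexokinase gene HXK1 was 2.51-fold lower (adjusted p = 0.000119). Of 22 glycolytic and fermentation genes 3 were higher and 0 lower, a share of 13.6% higher, below that of all genes. Under all 4 scalings these counts stayed the same. Without the length trend 1 was higher and 2 were lower, so the balance turned. Among the higher ones was ADH5, an alcohol dehydrogenase isoform, 1.95-fold higher (adjusted p = 0.00132).

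**Figure D3:**
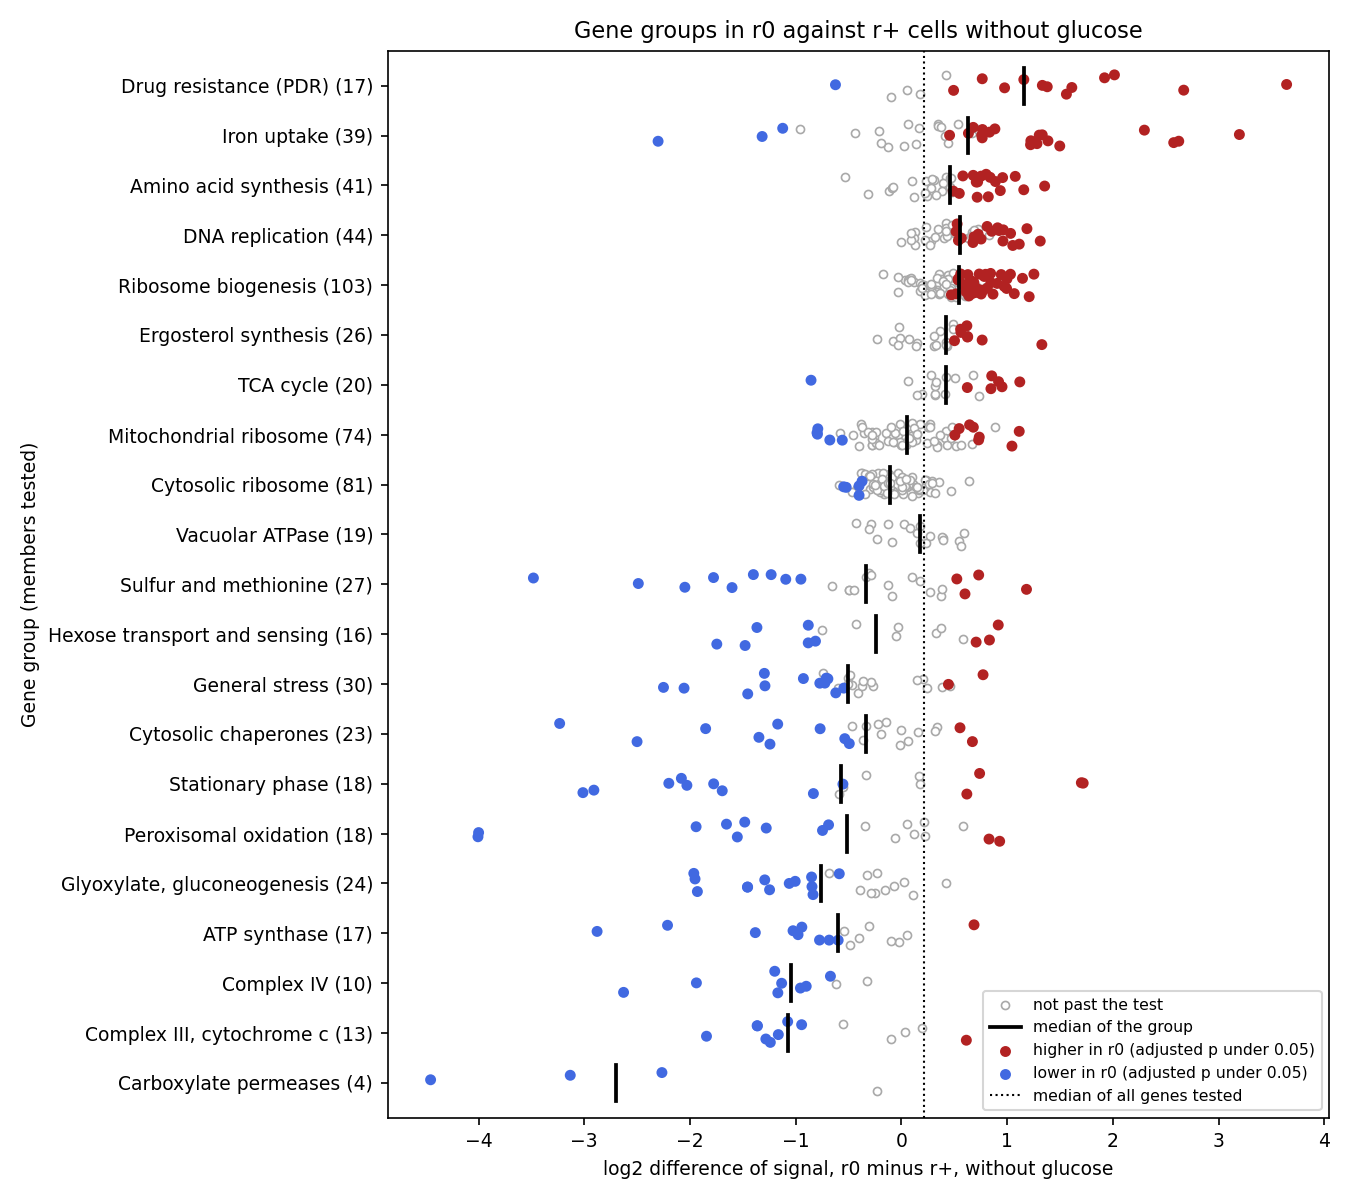
Log2 difference of each tested member (x axis, r0 minus r+, without glucose) of 21 gene groups (y axis, with the number tested). Filled points passed the test, red for higher and blue for lower in r0 cells, open points did not, the black bar is the group's median and the dotted line the median of all genes, 0.21. Drug resistance and iron uptake extend to the right, and carboxylate permeases, complexes III and IV and the ATP synthase to the left.

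Stress genes were more often lower than higher in r0 cells. Of 30 general stress genes, 12 were lower and 2 higher (relative median −0.71), with 7 lower under all 4 scalings and 12 without the length trend. HSP26, a small heat shock protein that holds unfolded proteins, measured 136, 76.2 and 136 in r0 cells, against 455, 654 and 526 in r+ cells, 4.76-fold lower (adjusted p = 5.54e-06). HSP42, another small heat shock protein, measured 181.9, 236 and 461 in r0 cells, against 1137, 1252 and 1014 in r+ cells, 4.16-fold lower (adjusted p = 6.13e-05). The r0 array of replicate 3 was the highest of its group for HSP42 and still below every r+ array. HSP12, a membrane-protecting stress protein, measured 1908, 1199 and 2366 in r0 cells, against 2430, 2915 and 3358 in r+ cells (adjusted p = 0.0414), a log2 difference of −0.71 ± 0.25. The r0 array of replicate 3 lay just below the lowest r+ array. This call was lost when any of 7 single arrays was left out, with an adjusted p of up to 0.196 and a log2 difference between −0.93 and −0.44 over all 12 omissions. GRE3, an aldose reductase gene, was 1.71-fold higher (adjusted p = 0.00902), a call lost under median centring.

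Cytosolic chaperone genes showed 9 lower and 2 higher of 23, with 6 lower under all 4 scalings and 13 without the length trend. With 1 array left out between 0 and 2 were higher. SSA4, the stress-inducible Hsp70 gene, measured 55.8, 42.5 and 62.2 in r0 cells, against 426, 570 and 546 in r+ cells, 9.40-fold lower (adjusted p = 1.99e-08). BTN2, which sorts misfolded proteins into deposits, measured 244, 132 and 206 in r0 cells, against 1049, 1164 and 1003 in r+ cells, 5.66-fold lower (adjusted p = 3.13e-06). Hsp90's inducible gene HSP82, on a shared probe set, was 3.61-fold lower (adjusted p = 8.75e-05). These inducible genes were separated from r+ on every array. Of 18 genes of stationary phase and respiratory growth, 9 were lower and 4 higher, with 7 and 3 under all 4 scalings and 8 and 3 without the length trend. RGI2, known for a role in energy metabolism under respiratory conditions, measured 49.6, 29.1 and 43.3 in r0 cells, against 302, 345 and 349 in r+ cells, 8.07-fold lower (adjusted p = 2.12e-06), and its relative RGI1 was 4.60-fold lower (adjusted p = 5.82e-05). SPG4, needed for survival in stationary phase, differed less, 1.78-fold lower (adjusted p = 0.00987), a call that median centring kept but poly-A scaling did not. SNZ1, of vitamin B6 synthesis, went the other way with 183, 209 and 195 in r0 cells, against 65.9, 56.3 and 53.6 in r+ cells, 3.29-fold higher (adjusted p = 1.17e-05). In oxidative defence 9 of 33 genes were lower and 3 higher, with 3 and 1 under all 4 scalings and 7 and 0 without the length trend. With 1 array left out between 1 and 5 were higher. TSA2, a thioredoxin peroxidase gene, was 2.64-fold lower (adjusted p = 0.000132), and YAP1, for the regulator of this response, 2.01-fold higher (adjusted p = 0.00735), a call lost without the length trend.

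The drug resistance network was the group with the highest median of all 57. Of 17 genes of the pleiotropic drug resistance (PDR) network, 12 were higher and 1 was lower in r0 cells, with a relative median of 0.95. Under all 4 scalings 10 were higher, where 8.24% of all genes were, and 10 without the length trend, where 7.31% of all genes were. RSB1, a membrane protein that exports sphingoid long-chain bases, measured 85.4, 102 and 72.5 in r0 cells, against 6.11, 11.01 and 2.08 in r+ cells, 12.5-fold higher (log2 difference 3.64 ± 0.32, adjusted p = 1.4e-06). Among the drug pumps of the ABC family, PDR15 measured 690, 715 and 366 in r0 cells, against 74.0, 98.9 and 91.8 in r+ cells, 6.36-fold higher (adjusted p = 3.62e-05). PDR5, the main pump of the network, measured 1810, 1982 and 1848 in r0 cells, against 580, 730 and 608 in r+ cells, 2.95-fold higher (adjusted p = 8.79e-06). PDR3, the gene of the network's regulator, measured 146, 136 and 120 in r0 cells, against 31.2, 38.4 and 27.2 in r+ cells, 4.04-fold higher (adjusted p = 1.78e-05). The r0 and r+ arrays were clearly apart for pumps and regulator alike, and 1 r+ array of RSB1 lay below the detection level. TPO4, a polyamine exporter, was 1.54-fold lower (adjusted p = 0.0131), a call lost with poly-A scaling and without the r+ array of replicate 3 (log2 difference −0.54).

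Iron uptake genes had the next highest median, with 19 of 39 higher and 3 lower (relative median 0.42). Under all 4 scalings 13 were higher and 3 lower, and in the fit without the length trend 11 and 4. ARN2, a transporter of iron bound to siderophores, measured 710, 795 and 401 in r0 cells, against 77.5, 51.4 and 69.4 in r+ cells, 9.17-fold higher (adjusted p = 2.65e-06). FIT2, a cell wall protein that helps retain siderophore iron, measured 2075, 2253 and 1272 in r0 cells, against 309, 287 and 313 in r+ cells, 5.96-fold higher (adjusted p = 5.12e-06), and its relative FIT3 was 6.16-fold higher (adjusted p = 0.00015). For ARN2, FIT2 and FIT3 the r0 array of replicate 3 was the lowest of its group and still above all r+ arrays. ARN1, another siderophore transporter, measured 343, 299 and 332 in r0 cells, against 76.0, 78.4 and 45.4 in r+ cells, 4.92-fold higher (adjusted p = 1.52e-06). In the opposite direction, MRS4, which carries iron into mitochondria, measured 48.3, 75.9 and 77.8 in r0 cells, against 339, 326 and 328 in r+ cells, 4.93-fold lower (adjusted p = 1.14e-06).

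The retrograde pathway, known for raising CIT2 and DLD3 when respiration fails, showed no call for those genes with all arrays. CIT2, for peroxisomal citrate synthase, measured 640, 603 and 718 in r0 cells, against 940, 1086 and 435 in r+ cells, a log2 difference of −0.23 ± 0.25 (SE, adjusted p = 0.516). DLD3, for a cytosolic D-lactate dehydrogenase, measured 88.9, 110 and 152 in r0 cells, against 168, 167 and 90.1 in r+ cells, a difference of −0.26 ± 0.24 (adjusted p = 0.433). For both genes the r0 and r+ arrays overlapped, and r+ replicate 3 was the lowest r+ array. Without that array CIT2 was called lower in r0 cells (log2 difference −0.63, adjusted p = 0.0174). Of 10 targets 4 were higher and 0 lower. Only 2 were higher under all 4 scalings and 1 without the length trend, and without the r+ array of replicate 3 the counts were 2 higher and 1 lower. IDH2, for a subunit of mitochondrial isocitrate dehydrogenase, measured 1926, 1973 and 1940 in r0 cells, against 1109, 1073 and 1047 in r+ cells, 1.81-fold higher (adjusted p = 0.000194). Of the regulators, RTG3 was 2.01-fold higher (adjusted p = 0.0037), whereas its partner RTG1 measured 1.31, 5.91 and 4.35 in r0 cells, against 10.4, 12.8 and 16.3 in r+ cells, 2.91-fold lower (adjusted p = 0.002). In r0 cells 2 of the 3 RTG1 signals lay below the detection level, so that this size is uncertain. In the TCA cycle 6 of 20 genes were higher and 1 was lower, with 3 and 1 under all 4 scalings and the same without the length trend. Among them were PDA1 for a subunit of pyruvate dehydrogenase 1.89-fold higher (adjusted p = 0.00657) and KGD4 for a subunit of 2-oxoglutarate dehydrogenase 1.81-fold lower (adjusted p = 0.00143).

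Amino acid synthesis and uptake differed by pathway. Of 41 synthesis genes 18 were higher and 0 lower, with 7 higher under all 4 scalings and between 10 and 20 higher with 1 array left out. Without the length trend 7 were higher and 2 lower. ARG7, an enzyme of ornithine and arginine synthesis, measured 226, 242 and 207 in r0 cells, against 102, 86.2 and 74.9 in r+ cells, 2.56-fold higher (adjusted p = 4.59e-05), and SER3, the first enzyme of serine synthesis, was 2.23-fold higher (adjusted p = 0.000887). Sulfate assimilation and methionine genes were more often lower, with 9 lower and 4 higher of 27, with 9 lower under all 4 scalings and 14 without the length trend. With 1 array left out between 2 and 4 were higher. MET2, for the homoserine acetyltransferase of methionine synthesis, measured 7.29, 4.03 and 13.5 in r0 cells, against 106, 88.3 and 104 in r+ cells, 11.2-fold lower (adjusted p = 1.32e-06). The S-methylmethionine permease gene MMP1 was 5.61-fold lower (adjusted p = 2.93e-05). Conversely STR2, which makes cystathionine from cysteine, was 2.27-fold higher (adjusted p = 0.00032). Among 20 amino acid permeases 6 were lower and 4 higher, with 6 and 1 under all 4 scalings and the same without the length trend. Among the lower ones, the methionine permease gene MUP3 measured 8.74, 8.93 and 9.69 in r0 cells, against 41.3, 43.9 and 75.9 in r+ cells, 5.01-fold lower (adjusted p = 2.65e-06).

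Genes for the breakdown of amino acids were called in both directions. PUT1, for proline oxidase of the mitochondrion, measured 11.8, 8.06 and 10.4 in r0 cells, against 114, 100.9 and 104 in r+ cells, 9.37-fold lower (adjusted p = 9.88e-08). ARO9, for the aminotransferase that starts the breakdown of aromatic amino acids, measured 12.01, 11.1 and 9.52 in r0 cells, against 134, 141 and 146 in r+ cells, 11.5-fold lower (adjusted p = 8.64e-09). For both genes all r0 arrays were far below all r+ arrays. PUT2, for the next step of proline breakdown and named after its values were seen, was higher instead. It measured 130, 88.4 and 81.4 in r0 cells, against 59.1, 59.1 and 49.7 in r+ cells, 1.74-fold higher (adjusted p = 0.0172). The groups that hold these genes are wider than breakdown. The group of ammonium permeases and glutamate metabolism, with the proline genes, had 4 lower and 6 higher of 24. The group of aromatic and branched amino acids, which joins breakdown and synthesis genes, had 3 and 4 of 20. These counts therefore do not describe breakdown alone. Without the length trend they were 8 and 2, and 3 and 0. With 1 array left out between 2 and 6 of the first group were higher. ASP1, the asparaginase gene, was 1.90-fold higher (adjusted p = 0.00145). GCV1, for a subunit of the glycine cleavage complex, measured 277, 206 and 258 in r0 cells, against 60.9, 47.8 and 75.4 in r+ cells, 3.99-fold higher (adjusted p = 3.52e-06).

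Large losses outside these groups included metal and phosphate genes. ZRT1, the high-affinity zinc transporter gene, measured 103, 132 and 98.9 in r0 cells, against 1148, 1351 and 1292 in r+ cells, 11.3-fold lower (adjusted p = 6.84e-09). SPL2, a regulator of phosphate transport, measured 3.54, 6.71 and 7.74 in r0 cells, against 65.4, 72.5 and 80.6 in r+ cells, 10.2-fold lower (adjusted p = 1.52e-06). In phosphate genes as a group 7 were higher and 4 lower of 23, but 1 and 4 under all 4 scalings, 1 and 5 without the length trend, and between 1 and 7 higher with 1 array left out. FDH1, for formate dehydrogenase on a shared probe set, measured 4.44, 1.09 and 3.30 in r0 cells, against 80.5, 69.2 and 127 in r+ cells, at least 15.3-fold lower (adjusted p = 5.12e-06). YNL194C, an integral membrane protein of the cell cortex, was 10.3-fold lower (adjusted p = 1.52e-06), HAB1 12.1-fold lower (adjusted p = 8.91e-06) and the protein kinase gene PRR2 at least 3.87-fold lower (adjusted p = 2.54e-06). All r0 signals of FDH1 and PRR2 lay below the detection level, as did 2 of 3 for HAB1, whose size is therefore uncertain, and 1 of 3 for SPL2. GRE2, a reductase of methylglyoxal, was one of the larger rises with 315, 323 and 312 in r0 cells, against 78.5, 88.8 and 72.7 in r+ cells, 3.92-fold higher (adjusted p = 5.32e-07).

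Autophagy genes were called in both directions. Of 32 genes 7 were higher and 6 lower, with 6 and 6 under all 4 scalings, but 2 and 7 without the length trend. The shares were 21.9% higher and 18.8% lower, where 20.6% and 9.4% of all genes were, so the higher share was near that of all genes. ATG11, the scaffold of selective autophagy and one of the long genes, measured 29.4, 18.2 and 21.5 in r0 cells, against 7.78, 8.48 and 3.62 in r+ cells, 3.09-fold higher (adjusted p = 0.000466). VPS15, a subunit of the lipid kinase complex, was 2.16-fold higher (adjusted p = 0.00103). ATG29, a short gene for a scaffold of bulk autophagy, did not exceed the detection level on any r0 array and was at least 1.46-fold lower (adjusted p = 0.00121).

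Many genes of growth were higher in r0 cells by small steps, and most of these calls were lost under another scaling or without the length trend. Of all genes tested 20.6% were higher, 8.24% under all 4 scalings and 7.31% without the length trend. Of 103 ribosome biogenesis genes 44 were higher and 0 lower (relative median 0.33), with 18 higher under all 4 scalings, 15 without the length trend and between 27 and 51 with 1 array left out. RRP9, for a protein of the U3 particle, measured 83.5, 68.9 and 79.6 in r0 cells, against 28.3, 35.7 and 34.1 in r+ cells, 2.31-fold higher (adjusted p = 8.36e-05). In DNA replication 19 of 44 were higher and 0 lower, with 10 higher under all 4 scalings, 4 without the length trend and between 11 and 22 with 1 array left out. CDC45, of the replicative helicase, measured 46.6, 38.3 and 41.7 in r0 cells, against 17.7, 11.5 and 20.1 in r+ cells, 2.48-fold higher (adjusted p = 0.000504), and POL30, the sliding clamp, was 2.17-fold higher (adjusted p = 0.00256). RNA polymerase I and III genes had 10 of 36 higher, a share of 27.8%, with a relative median of only 0.05. Under all 4 scalings 3 were higher, 3 without the length trend and between 5 and 10 with 1 array left out. TFC1 of the polymerase III factor TFIIIC was 2.25-fold higher (adjusted p = 0.000239). Cytosolic ribosomal protein genes, which are short, had 5 of 81 lower and 0 higher, none of them called under all 4 scalings. In this family median centring gave 16 lower and 0 higher, while poly-A scaling gave 0 of each, and between 1 and 8 were lower with 1 array left out. In the cell cycle 7 of 26 were higher and 3 lower, shares of 26.9% and 11.5%, near those of all genes. Under all 4 scalings 5 were higher and 2 lower. Without the length trend 2 were higher and 4 lower, so the balance turned. AMN1, an antagonist of mitotic exit, was 2.51-fold higher (adjusted p = 7.76e-05), and WHI5, the inhibitor of the start of the cycle, at least 2.16-fold lower (adjusted p = 0.00245).

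Calls among other mitochondrial genes varied between groups. Of the 74 mitochondrial ribosomal protein genes 8 were higher and 5 lower, shares of 10.8% and 6.8% where all genes had 20.6% and 9.4%. Under all 4 scalings 4 were higher and 0 lower, and without the length trend 6 and 3. With 1 array left out between 0 and 5 were lower. MRPL35, a protein of the large subunit, measured 49.4, 44.7 and 45.7 in r0 cells, against 29.3, 25.6 and 27.3 in r+ cells, 1.67-fold higher (adjusted p = 0.00332). In protein import 4 of 34 genes were higher and 1 was lower, shares of 11.8% and 2.9%. These counts were the same under all 4 scalings and without the length trend. TOM70, a receptor of the outer membrane, measured 108, 102 and 127 in r0 cells, against 54.5, 59.2 and 52.5 in r+ cells, 1.99-fold higher (adjusted p = 0.00198), while TOM22, another receptor, measured 110, 115 and 150 in r0 cells, against 225, 208 and 248 in r+ cells, 1.82-fold lower (adjusted p = 0.00149). So both receptors were fully separated between the strains, in opposite directions. For the maintenance of mitochondrial DNA, which r0 cells lack, 5 of 16 genes were higher and 0 lower, with 3 higher under all 4 scalings, 1 without the length trend and between 2 and 6 with 1 array left out. MTF1, the mitochondrial transcription factor, was 1.90-fold higher (adjusted p = 0.00217). In the carriers of the inner membrane 8 of 32 were higher and 6 lower, with 2 and 4 under all 4 scalings, 3 and 7 without the length trend and between 2 and 9 higher with 1 array left out. ODC2, an exporter of 2-oxodicarboxylates, was 2.43-fold higher (adjusted p = 9.04e-05).

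The difference between r0 and r+ cells without glucose was set beside that in glucose, which uses other arrays, though the labels describe both media as parts of the same master cultures. In glucose 268 genes were higher (5.0%) and 78 lower (1.45%) in r0 cells. Both comparisons called 135 genes higher (2.52% of those tested), 12.3% of the list without glucose and 50.4% of the list in glucose, and 34 genes lower (0.634%), 6.7% and 43.6% of those lists. Another 22 genes (0.41%) were lower without glucose and higher in glucose, and 2 (0.0373%) the reverse. A test of the difference itself, in the same limma fit, found 287 genes (5.35%) whose r0 minus r+ difference was more negative without glucose and 84 (1.57%) whose difference was more positive. With poly-A scaling these counts were 179 and 9, and with strain and replicate number, taken as the master culture, as a random block 416 and 216. The count of 84 was 32, 39 or 46 without the r+ glucose array of replicate 2, 3 or 1, and 48 without the r+ array of replicate 3 in the medium without glucose. It was 50 without the r0 array of replicate 1 in that medium and 134 without the r0 glucose array of replicate 2.

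Drug resistance and iron uptake genes differed between the strains in glucose too. In glucose 8 of the 17 drug resistance genes were higher, where 5.0% of all genes were, with RSB1 at a log2 difference of 3.78 (adjusted p = 3.35e-06) and PDR5 at 1.40 (adjusted p = 8.73e-05). For iron uptake 13 of 39 were higher in glucose, ARN2 at 2.63 and FIT2 at 3.06 (adjusted p = 6.9e-05 and 3.35e-06). The difference between the media was −0.14 ± 0.45 for RSB1 and 0.16 ± 0.23 for PDR5 (SE, adjusted p = 0.891 and 0.709), neither of them called. It was called more negative without glucose for 3 iron genes, MRS4 among them at −2.29 ± 0.28 (adjusted p = 0.000119). ZRT1 was lower in both media, with −3.34 in glucose (adjusted p = 2.04e-08). FIG1, a gene of mating, and ANB1, the low-oxygen isoform of eIF5A, were also lower in both. FIG1 did not exceed the detection level on any r0 array and was at least 4.11-fold lower without glucose and at least 5.34-fold lower in glucose, and ANB1 had log2 differences of −2.14 and −2.33.

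For many respiratory and carbon source genes the strain difference depended on the medium. In glucose the median log2 difference was 0.02 for the complex III group, −0.22 for complex IV and −0.12 for the ATP synthase, relative to the median of all genes there, 0.13. The difference was more negative without glucose for 7, 6 and 5 of their genes, where it was for 5.35% of all genes. It was so for 9 of 24 glyoxylate and gluconeogenesis genes, 8 of 18 peroxisomal oxidation genes, 9 of 30 stress genes and 6 of 23 chaperone genes. INH1 measured 15.4 ± 1.27 in r0 cells and 19.8 ± 2.14 in r+ cells in glucose (SD, n = 3 each), a log2 difference of −0.33 there (adjusted p = 0.349). Its difference between the media was −2.55 ± 0.29 (adjusted p = 5.87e-05). Signals of CTA1 in glucose were 7.52 ± 1.15 in r0 cells and 7.18 ± 2.17 in r+ cells, at or near the detection level in both strains. HSP12, one of the 22 genes with opposite calls, measured 1351 ± 473 in r0 cells and 269 ± 30.7 in r+ cells in glucose, a log2 difference of 2.28 (adjusted p = 4.41e-05). NDE1, in contrast, was higher in r0 cells in both media, at 1.20 in glucose (adjusted p = 0.0016), with a difference between the media of −0.06 ± 0.27.

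**Figure D4:**
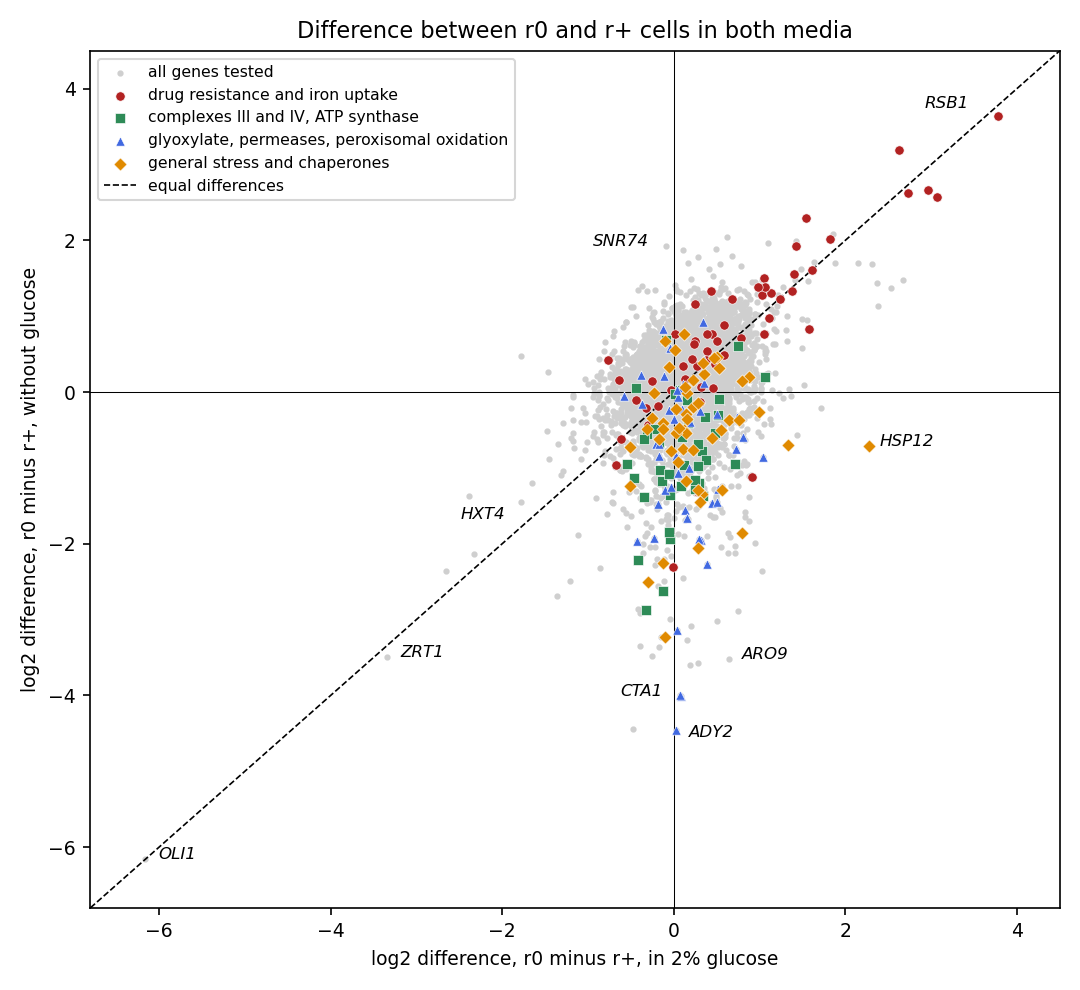
Log2 difference r0 minus r+ of every tested gene without glucose (y axis) against that in 2% glucose (x axis), with gene groups in colour and equal differences on the dashed line. Most drug resistance and iron uptake genes (red) spread along the dashed line, while most genes of complexes III and IV and ATP synthase (green), of glyoxylate, permeases and peroxisomal oxidation (blue) and of stress (orange) spread downwards near 0 in glucose, with HSP12 far to the right at 2.28.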

How the data were processed

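RNA was taken from equal numbers of cells, selected for poly(A) tails and hybridised as biotin-labelled cRNA to Affymetrix yeast arrays, per the labels' protocols. The deposited values are linear signal intensity per probe set, made with MAS5 per the submitters' processing notes; they were neither rescaled nor centred here. Depth has no count on arrays, and their number, 3 per group, limits the precision.

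Of 9335 probe sets, 60 were controls; 6504 had 1 gene in the platform annotation, 328 had several and 2443 had none. Coding lengths came from the RefSeq table (assembly R64), which held all 6504 gene identifiers. Each gene was represented by its brightest probe set, and genes on a probe set that matches related genes are named as shared (257 of those tested). The pseudocount of 1.498 was the 10th percentile of signals, and log2(signal + pseudocount) was fitted with limma 3.58.1 in R 4.3.3. One mean per group was fitted over all 12 arrays (8 residual degrees of freedom), with a trended prior and Benjamini-Hochberg adjustment over the 5361 genes whose mean exceeded the detection level, the 25th percentile (5.822), in at least 1 group. Tested on simulated data of that size, the fit found 73% of 2-fold and 98% of 4-fold changes and made 6 calls among 5161 genes simulated without change. The simulated noise was independent between genes, with no shift of whole arrays and no trend on coding length. It therefore cannot show how many calls such shifts or trends add in the real data.

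Alternatives were other scalings, pseudocounts, filters, blocks, probe set summaries and the omission of arrays. Tests at probe set level and without the coding length trend were added after the data were seen. Named genes were the 12 largest called differences each way, up to 4 per gene list, the 5 largest media differences each way and a few markers. The 57 gene lists and all named markers were chosen with earlier results of these data known. No sequences were used here.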

Additional observations from a re-analysis of the deposited data

Results flagged for a closer look

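For 21 genes the r0 minus r+ difference itself differed between the media in the limma fit, and each is given as the log2 difference without glucose minus that in glucose. Among those with a more negative difference without glucose were the acetate permease gene ADY2 (−4.48), the peroxisomal genes CTA1 (−4.08) and POT1 (−4.07), the glyoxylate cycle gene ICL1 (−2.27) and the ethanol oxidation gene ADH2 (−1.70). The formate dehydrogenase gene FDH1, on a shared probe set, had −3.96, the aromatic aminotransferase gene ARO9 −4.17 and the methionine synthesis gene MET2 −3.23. The phosphate regulator SPL2 had −2.95, the kinase gene PRR2 −3.85, the cortical membrane protein gene YNL194C −3.19 and HAB1 −3.79. Signals of FDH1 and PRR2 exceeded the detection level only in r+ cells without glucose, and those of HAB1, SPL2 and CTA1 lay near it in the other groups. POT1 and ARO9 were dim in those groups, with means between 7.05 and 12.1. ADY2 lay near the detection level in both strains in glucose, and MET2 exceeded it on only 2 of the r0 arrays without glucose. All these values are therefore uncertain in size. Stress and stationary phase genes were HSP12 at −2.99 and SPG4 at −1.48.

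A more positive difference without glucose was seen for the small nucleolar RNAs SNR74 (2.02) and SNR128 (1.76) and the 5S ribosomal RNA gene RDN5-3 on a shared probe set (1.42). PAN3, for a subunit of a poly(A) nuclease, had 1.77, the choline transporter gene HNM1 1.60 and the reductase gene GRE2 0.88. TEF4, for a subunit of elongation factor 1, had 1.73: it was not called without glucose (0.27, adjusted p = 0.581) and was lower in r0 cells in glucose (−1.46, adjusted p = 0.0202). These genes were picked by size or as markers from all genes called for the difference, so the list says nothing of how common each direction is. The cause of the differences was not tested.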

How the results depend on the processing

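The count of genes higher in r0 cells, 1102, was 708 with quantile normalization, 442 with median centring, 392 without the coding length trend and between 701 and 1262 when 1 array was left out, lowest without the r0 array of replicate 1. The count of lower genes, 504, was 288 with poly-A scaling and between 392 and 567 with 1 array left out. For the difference between the media, the 84 more positive genes became 9 with poly-A scaling, 216 with culture as a random block and between 32 and 134 with 1 array left out. The 287 more negative ones became 179 with poly-A scaling, 416 with culture as a random block and between 198 and 328 with 1 array left out. With mean signals over all probe sets, IRA2 and TFC3 turned to −0.36 and −0.22, against 0.64 and 1.01. The cause was not tested. With the replicate number as a block 1275 genes were higher and 570 lower, and 160 and 358 differed between the media. The labels do not say whether the numbers pair the strains. Deviations of same-numbered r0 and r+ arrays correlated at −0.076, 0.117 and 0.046 without glucose and at 0.187, −0.114 and 0.341 in glucose. With 3 arrays a group these values cannot decide it. Of 201 named genes called, 126 stayed called in all 27 other settings and 75 were lost in at least 1. Dim genes carry only bounds, and 3 arrays a group leave a median standard error of 0.21 on the log2 scale.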

Other observations

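Glycine cleavage, chosen after its values were seen, was higher in r0 cells for most subunits. GCV2, for the glycine decarboxylase subunit, measured 166, 215 and 198 in r0 cells, against 75.1, 77.2 and 65.3 in r+ cells, 2.62-fold higher. LPD1, for the lipoamide dehydrogenase shared with other complexes, measured 1039, 971 and 1019 in r0 cells, against 638, 657 and 238 in r+ cells, 2.17-fold higher (adjusted p = 0.00919). The r+ array of replicate 3 stood apart from the other r+ arrays. Over the 12 omissions of 1 array the log2 difference of LPD1, 1.12 with all arrays, lay between 0.64 and 1.37, and the call was kept. GCV3 measured 538, 854 and 818 in r0 cells, against 529, 476 and 471 in r+ cells, and was not called (adjusted p = 0.11). For GCV2 the log2 difference was 1.39 without and 1.27 in glucose, and the 3 r0 arrays lay above the 3 r+ arrays in both media.

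Transcripts other than messenger RNA also gave calls, in RNA selected for poly(A) tails. Of 91 tested tRNA genes 25 were higher and 8 lower in r0 cells, and of 53 small nucleolar RNA genes 8 and 5. Of all genes tested 20.6% were higher and 9.4% lower. All 4 ribosomal RNA genes tested lay above 0 as a group (median log2 difference 1.04), and 3 were called higher. RDN5-3, the 5S gene on a shared probe set, measured 1080, 552 and 591 in r0 cells, against 158, 156 and 198 in r+ cells. The signals of the ribosomal RNA control probe sets, as mean log2, were 8.86, 7.82 and 8.38 in r0 cells and 8.61, 8.50 and 8.71 in r+ cells, and their part in these calls was not tested.

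Among 1241 tested probe sets with no gene listed, 80 were higher and 98 lower in r0 cells, with log2 differences between −3.28 and 1.94. By chromosome, the median log2 difference of nuclear genes lay between 0.07 and 0.30 without glucose.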
